A study of Mus musculus with 11 samples.

Results

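Allogeneic recipients that lack mast cells (allo-MCd) were compared with wild-type allogeneic recipients (allo-WT) for the RNA of their skin, over the genes of a NanoString panel that lie outside the families the study plotted. The question was which other parts of the innate immune and tissue program of the skin differed with the absence of host mast cells. The comparison took 8 of the 11 mice, 3 allo-WT and 5 allo-MCd, and the 3 syngeneic mice are given beside it as the background without an allogeneic graft. Of the 754 genes on the panel, 642 were members of the comparison: 20 housekeeping genes were set aside, with 92 genes of the plotted fibrosis, mast cell, T-cell and chemokine families. Of these 642 genes, 608 had a normalized count of at least 20 in at least 3 mice and were tested. The other 34 were too low in most mice, with no value above 190.1 in allo-WT or 21.7 in allo-MCd skin.

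Allo-WT recipients were C57BL/6J mice, and allo-MCd recipients carried the sash allele of Kit on that background (B6.Cg-KitW-sh/HNihrJaeBsmGlliJ). All were female and 8 to 10 weeks old. Each recipient was given 850 cGy of radiation and then 5000000 bone marrow cells and 2000000 splenocytes of the LP/J strain by vein, and skin of the neck was taken after 7 weeks. The syngeneic C57BL/6J recipients were treated likewise, but the labels give them LP/J cells and the methods C57BL/6J cells. The sash allele is carried by every host cell and not by mast cells alone, so the groups differ in Kit of all host cells, and no group with mast cells put back was included in these samples.

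Chronic graft-vs.-host disease (cGVHD) of the skin follows an allogeneic transplant when donor lymphocytes attack host tissue, and macrophages, neutrophils and other myeloid cells enter the dermis. Mast cells are resident granule cells that depend on Kit, survive irradiation, and release histamine, proteases and chemokines that draw such cells in. The panel therefore holds receptors, enzymes and cytokines of myeloid cells, together with matrix, lipid and signaling genes of the tissue itself.

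As a check of the labels, Kit and the mast cell proteases were read in each mouse. Kit had 91.3, 11.9 and 75.4 normalized counts in the 3 allo-WT and 12.2, 11.1, 21.7, 7.98 and 17.3 in the 5 allo-MCd mice, and no allo-MCd value was above the background of the negative controls. Allo-WT mouse 2 thus lay within the allo-MCd range, and the difference of -1.66 in log2 value passed the test (limma adjusted p = 0.0278) but not when each mouse was scaled to the same median gene (0.181). Leaving out allo-WT mouse 1 or 3, or allo-MCd mouse 1, 2 or 4, also ended the call, at limma adjusted p-values from 0.0514 to 0.149. The chymase gene Cma1 had 4069, 589 and 2237 normalized counts in allo-WT skin and no more than 188 in any allo-MCd mouse, and Tpsb2, Fcer1a and Cpa3 were likewise lower in every allo-MCd mouse than in any allo-WT mouse. The methods' test on unlogged values with Benjamini-Hochberg adjustment called none of these 5 genes (adjusted p from 0.0521 to 0.202), and without the adjustment it called Cma1, Tpsb2 and Cpa3. Of the markers of skin cells on the panel, Cdh1 of keratinocytes and Col1a2, Col3a1 and Pdgfra of fibroblasts were above background in all 11 mice.

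Values are normalized counts of RNA molecules, 1 lane per mouse, and differences are allo-MCd minus allo-WT in log2(value + 1), which understates the change of low genes. A gene was called where limma gave it an adjusted p no greater than 0.05. The typical gene was lower in allo-MCd skin. As group medians, the median value per mouse was 508 in allo-WT, 438 in syngeneic and 269 in allo-MCd mice. The median difference over all 696 tested genes was -0.72. The deposited scale holds the mean log level of the 20 housekeeping genes equal, and some of these varied themselves, with Gusb 5.55-fold apart between its highest and lowest mouse. Every gene was therefore also compared after each mouse was scaled to the same median gene, where the median difference was 0.12. A gene is said to be lower or higher on both scales where it was called in the same direction each time. Depth, as whole counts recovered per mouse, ran from 831632 to 1460260. The lowest belonged to allo-WT mouse 1, whose strongest positive control gave 3975 counts against 17615 or more in the other mice, and the counts over the 608 genes, and those of the lists that it moved most, are also given without it.

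Of the 608 tested genes, 283 had lower and 71 had higher levels with mast cell deficiency on the deposited scale, where 50% of all 696 tested genes were called lower and 10.9% higher. Under the median scaling the same genes gave 159 lower and 235 higher, against 30.3% and 35.6% of all genes. All 159 were also lower on the deposited scale and all 71 were also higher under the median scaling. So 159 genes were lower and 71 higher on both scales, against 30.3% and 10.9% of all tested genes. Counts over the gene lists below are to be read beside these shares. In 158 of the 159 every allo-MCd value was below every allo-WT value, and in 58 of the 71 every allo-MCd value was above them. Called genes are apt to show this: among all tested genes called on both scales it held for 209 of 211 and 60 of 76. Over all 608 genes, called or not, the groups did not overlap in 259 downward and 68 upward. These counts were near the 46% and 10.1% of all tested genes. The median difference of the 608 genes was -0.59, and 0.24 under the median scaling, so their typical gene lay slightly above that of the panel on either scale. Without allo-WT mouse 1 the number lower on both scales was 145, of which 139 were among the 159, and the number higher fell to 45, all among the 71. The 3 allo-WT mice are few. The limma p-values rest on a spread within groups that is pooled over all 3 groups, and not on that of the allo-WT mice alone.

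**Figure D1:**
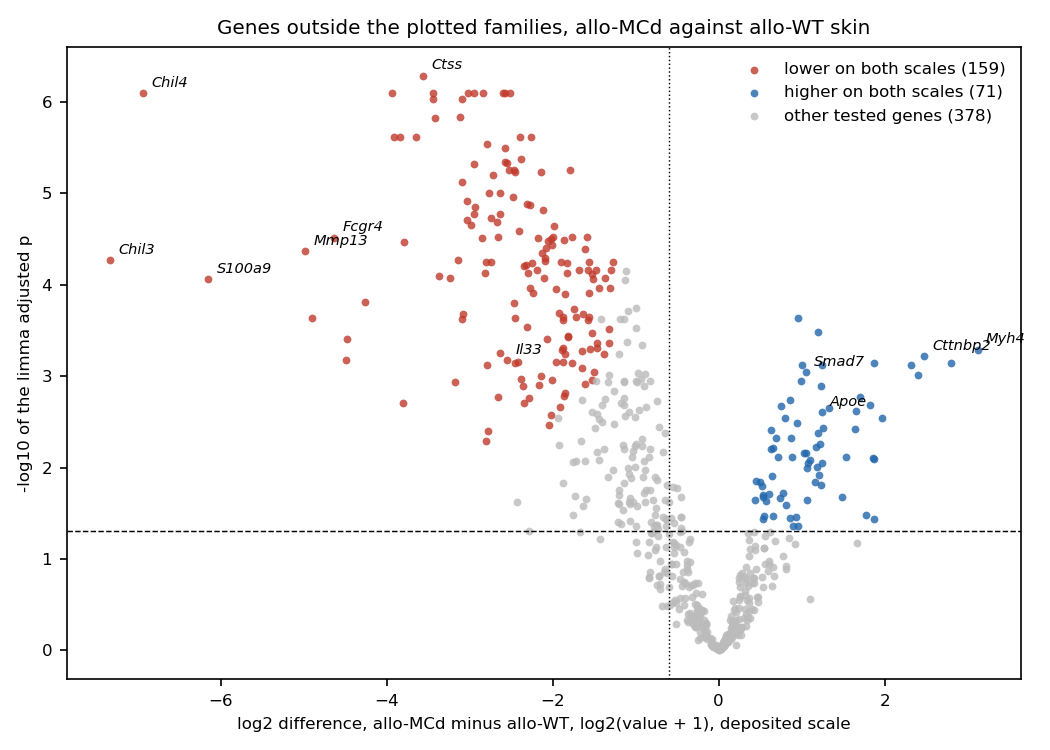
Each point is 1 of the 608 tested genes. The horizontal axis is the log2 difference of allo-MCd minus allo-WT on the deposited scale, the vertical axis is -log10 of the limma adjusted p, the dashed line marks 0.05 and the dotted line the median gene at -0.59. The 159 genes lower on both scales reach to -7.33 and the 71 higher ones to 3.12.

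Chil3 and Chil4 encode secreted chitinase-like proteins of alternatively activated macrophages. Chil3 had 2474, 2970.1 and 303 normalized counts in allo-WT mice 1 to 3 and 1.00, 20.4, 11.4, 8.77 and 5.76 in the allo-MCd mice, and Chil4 had 2890.0, 3613 and 613 against 11.4, 20.4, 20.7, 12.8 and 9.21. All allo-WT values lay far above all allo-MCd values, of which 1 of 5 for each gene was above background, and the syngeneic mice were as low, at no more than 54.1 and 23.8. The differences were -7.33 (limma adjusted p = 5.46e-05) and -6.94 (limma adjusted p = 8.03e-07), and -6.57 and -6.11 under the median scaling. Since 4 of 5 allo-MCd values of each gene were not above background, these sizes and their rank among the genes are not exact. The 2 genes are close relatives, and how well their probes tell them apart was not tested.

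S100a8 and S100a9 encode the subunits of calprotectin, an alarmin that neutrophils and stressed keratinocytes release. Normalized counts of S100a9 were 55154, 12612 and 1188 in allo-WT skin, against 75.9, 229.9, 179, 115 and 108 in allo-MCd mice. For S100a8 they were 76492, 16077 and 1892 and 601, 781, 601, 755 and 330.4. The allo-WT mice differed widely among themselves, from the highest in mouse 1 to the lowest in mouse 3, yet the lowest was above every allo-MCd mouse. S100a9 was lower by -6.15 and S100a8 by -4.49 in log2 value, at 8.77e-05 and 0.000665 as limma adjusted p. The methods' test on unlogged values did not call either gene (adjusted p of 0.209 and 0.227 after Benjamini-Hochberg adjustment), nor Mmp8.

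Fpr2, Fpr1 and Mmp8 put the allo-WT mice in the same order. Fpr2, a receptor for formyl peptides, had 1716, 1166 and 408 normalized counts in allo-WT skin, against 23.5, 56.5, 45.5, 66.2 and 5.76 in allo-MCd mice, and its relative Fpr1 had 560.3, 307 and 109.9 against 6.07, 22.2, 12.4, 16.8 and 12.7. Mmp8, the collagenase of neutrophil granules, had 555, 160.0 and 25.6 against 2.28, 7.42, 6.20, 2.39 and 10.4, with no allo-MCd value above background, so the size of its difference is not exact. Of the 608 genes 3 reached the value of 20 that a test required in allo-WT mice alone, so they could be tested only because they were high there, and Mmp8 and Trem1 of the neutrophil list were among them. Csf3r, the receptor for G-CSF, took another order, at 1143, 514 and 668 against 37.2, 90.8, 54.8, 57.4 and 58.7, and was lower by -3.65 (limma adjusted p = 2.43e-06). Of 14 tested genes in the neutrophil list, 13 were lower, 10 of them on both scales, and 0 were higher, with a median difference of -2.82 against -0.72 for the panel. Without Mmp8 and Trem1, an alternative added after the values were seen, 11 of 12 were lower, 8 on both scales, with a median of -2.45. Without allo-WT mouse 1 the number lower was 9, and the methods' test on unlogged values called 7, or 6 after Benjamini-Hochberg adjustment. Il1r2 did not pass the test on the deposited scale and was called higher under the median scaling. Of the 4 neutrophil markers, Ly6g and Mpo were too low to be tested. The sum of the 4 lay between 3111 and 131850 in allo-WT skin, but between 457 and 1029 in allo-MCd mice. S100a8 and S100a9, given above, make up most of that sum, so it adds little to them. In bulk skin, fewer cells of a type and less RNA per cell cannot be told apart, here and for the groups that follow.

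**Figure D2:**
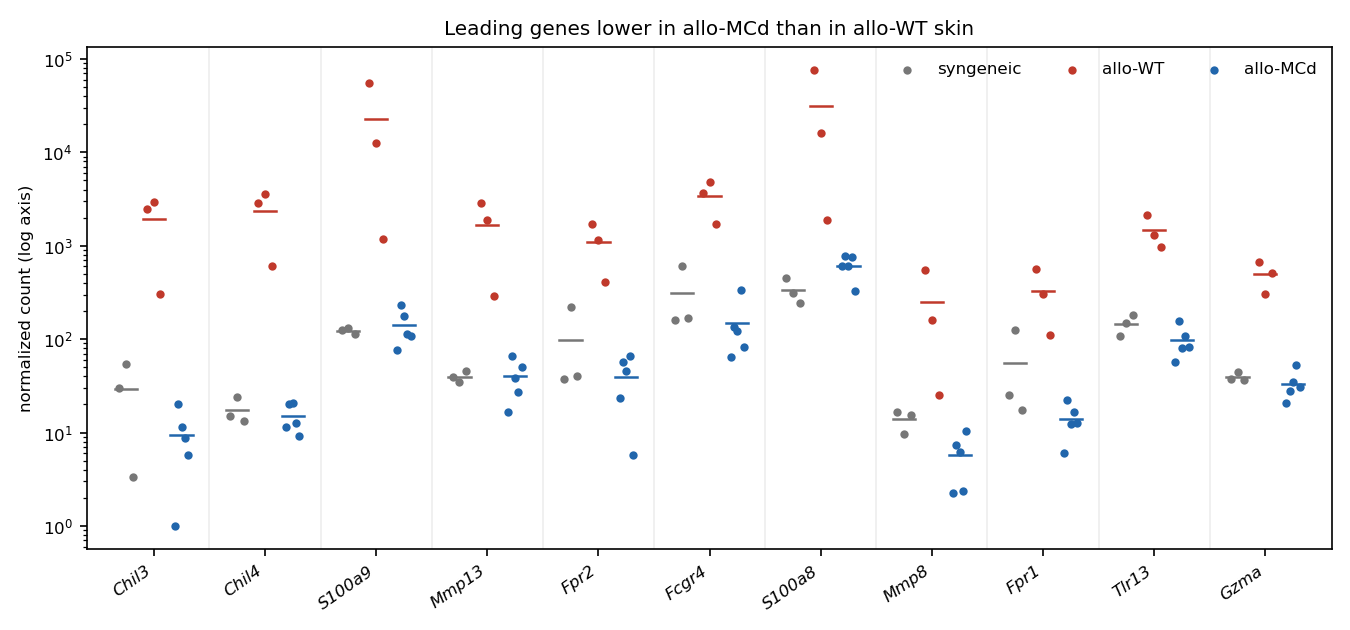
Normalized counts on a log axis of 11 of the 12 genes with the largest differences downward, 1 point per mouse and a bar for the group mean, in 3 syngeneic, 3 allo-WT and 5 allo-MCd mice. In each gene all allo-WT points lie above all allo-MCd points, and the allo-MCd points lie near the syngeneic ones.

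Mmp13 and Gzma were also among the leading genes. Mmp13, a collagenase of the dermis, had 2877, 1896 and 287 normalized counts in allo-WT skin, against 16.7, 66.8, 38.2, 27.1 and 50.6 in allo-MCd mice, a difference of -4.98 (limma adjusted p = 4.29e-05). Gzma, a granule protease of cytotoxic lymphocytes, had 664, 303 and 511 in allo-WT, 20.5, 27.8, 35.1, 52.6 and 31.1 in allo-MCd and 37.4, 44.4 and 36.4 in syngeneic mice. Its difference was -3.84, and -3.00 under the median scaling.

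Macrophage and monocyte genes were lower throughout. All 27 tested genes of this list were called lower, 19 of them on both scales, and their median difference was -2.26, or -1.42 under the median scaling. Trem1 is in this list too, and without it 26 of 26 were lower, 18 on both scales, with a median of -2.21. Cybb, the catalytic subunit of the phagocyte oxidase, had 3706, 4924 and 3519 normalized counts in allo-WT, 332, 583, 544, 584 and 597 in allo-MCd and 1152, 1009 and 1306 in syngeneic mice, and was lower by -2.95 (limma adjusted p = 8.03e-07). Its allo-MCd values thus lay below the syngeneic ones as well as below the allo-WT ones. C3ar1, the receptor for the complement fragment C3a, had 9055, 4726 and 5994 in allo-WT against 368, 778, 567, 605 and 681 in allo-MCd skin. Cd84, an adhesion receptor of the SLAM family, had 3182, 1707 and 3126 against 233, 273, 299, 261 and 444, and Itgam, the alpha chain of the integrin Mac-1, had 1851, 1488 and 1239 against 259, 346, 293, 305 and 376. Differences of these 4 genes lay between -3.45 and -2.26. The 3 macrophage markers Adgre1, Csf1r and Cd68 were each lower, and their summed values ran from 11060 to 17195 in allo-WT, from 2084 to 4085 in allo-MCd and from 7361 to 8254 in syngeneic mice.

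Genes by which macrophage activation is described did not all move alike. Of 24 tested, 18 were lower, 10 of them on both scales, and 0 were higher, with a median of -1.81, and the methods' test called 11 lower. Il4ra, the receptor chain for interleukin-4 and interleukin-13, had 4538, 3013 and 2823 normalized counts in allo-WT skin, against 678, 863, 762, 585 and 1003 in allo-MCd mice, and Nlrp3, the sensor of an inflammasome, had 479, 192 and 159.7 against 21.3, 40.8, 28.9, 31.9 and 56.4. They were lower by -2.14 and -2.81 (limma adjusted p of 5.85e-06 and 7.52e-05). Ptgs1, Il12a, Vegfa, Pparg, Klf4 and Ido1 did not pass the test. Under the median scaling 4 genes of the list were called higher and 10 lower.

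Fc receptors and their signaling genes were lower in 8 of 9 tested genes, 7 of them on both scales, with a median of -2.02. These receptors bind the constant part of IgG and pass the signal to Syk and Btk. Fcgr4 had 3643, 4777 and 1699 normalized counts in allo-WT skin, against 63.8, 134, 123, 337 and 81.7 in allo-MCd mice, and was lower by -4.63 (limma adjusted p = 3.06e-05). The inhibitory receptor Fcgr2b had 19858, 11712 and 16935 against 1253, 1531, 1377, 1089.6 and 2204, Fcgr3 had 2464, 1714 and 1426 against 177, 209.5, 185, 197 and 321, and Fcgr1 had 2652, 1973 and 1772 against 160.2, 458, 173, 327 and 215. The differences of these 3 receptors were -3.45 for Fcgr2b, -3.09 for Fcgr3 and -3.09 for Fcgr1, and differences between receptors were not tested. Syk had a smaller difference, at 1141, 834 and 1164 against 341, 338, 279, 330.2 and 457 (-1.58).

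All 10 tested complement genes were lower on both scales, with a median of -2.42. C1qa, C1qb and C1qc encode the chains of C1q, which tissue macrophages make and which opens the classical pathway. C1qb had 21328, 19229 and 20447 normalized counts in allo-WT, 2425, 3693, 3417, 3711 and 4108 in allo-MCd and 9845, 8459 and 8315 in syngeneic mice. The differences were -2.60 for C1qa, -2.57 for C1qb and -2.52 for C1qc, with standard errors of no more than 0.19, and differences between the chains were not tested. Itgb2, the beta chain that the leukocyte integrins share, had 4406, 2646 and 2839 against 356, 407, 447, 481 and 588 and was lower by -2.83. This list shares Itgb2, Itgam, Itgax and C3ar1 with the adhesion or macrophage lists.

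Innate sensing genes were lower in 20 of 24 tested genes, or 83.3%, and 15 were lower on both scales, against 50% and 30.3% of the panel. Their median was -1.84, and 2 were higher under the median scaling. Tlr13, which senses bacterial ribosomal RNA in the endosome, had 2135, 1304 and 973 normalized counts in allo-WT skin, against 57.0, 157, 80.6, 108 and 81.7 in allo-MCd mice, a difference of -3.92 (limma adjusted p = 2.43e-06). Tlr8, an endosomal receptor of the same family, had 2614, 1615 and 1976 against 179, 297, 255, 238 and 292. Tmem173, which encodes STING, the adaptor for cytosolic DNA, had 709.8, 803 and 580.0 against 94.2, 119, 121, 95.7 and 160.0, and Casp1, the protease of inflammasomes, had 3399.6, 3332 and 2725 against 743, 832, 993, 869 and 1135. The differences of these 3 genes ran from -3.02 to -1.79. Tlr11, Traf6, Pycard and Ripk2 did not pass the test.

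Antigen presentation genes were lower in 19 of 24 tested genes, or 79.2%, and 13 were lower on both scales, against 50% and 30.3% of the panel. Their median was -1.49, and 2 were called higher under the median scaling. Ctss, the protease that trims the invariant chain in antigen-presenting cells, had 20053, 20746 and 14185 normalized counts in allo-WT, 1029, 1769, 1398, 1773 and 1828 in allo-MCd and 3873, 4195 and 4369.8 in syngeneic mice. At -3.57 (limma adjusted p = 5.22e-07) it had the lowest p of the 608 genes. Psmb8 and Psmb9, subunits of the immunoproteasome that interferon induces, were lower by -2.08 and -2.10. Psmb9 values were 2350.0, 2953 and 2543 in allo-WT and 377, 471, 716, 1019 and 643 in allo-MCd skin. The class I gene H2-Q1 was lower by -1.68 and by -0.84 under the median scaling. Genes of this family are close in sequence, and whether the probes separate them was not tested.

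Interferon genes were lower in 15 of 17 tested genes, or 88.2%, and 9 were lower on both scales, against 50% and 30.3% of the panel. Their median was -1.44, and the median scaling called 1 higher. Isg15, a ubiquitin-like protein induced by type I interferon, had 5352, 7944 and 4790.5 normalized counts in allo-WT skin, against 488, 1309, 466, 1164 and 541 in allo-MCd mice. Irf1, a transcription factor induced by interferon gamma, had 8224, 11707 and 6042 against 756, 706, 1377, 2178 and 1311. Socs1, a feedback inhibitor of the same pathway, had 953, 1494 and 789 against 168, 159, 132, 228 and 197, and Ifng itself had 96.3, 172 and 61.3 against 12.2, 12.1, 13.4, 13.6 and 17.3, with no allo-MCd value above background. Ifng, Irf1, Isg15 and Socs1 were all lower, by -2.80, -2.85, -3.04 and -2.58 (limma adjusted p between 4.53e-06 and 5.67e-05). Whether these changes were linked was not tested. The size of the Ifng difference is not exact, since its allo-MCd values were not above background. Irf3 and Ifnb1 did not pass the test.

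Cytotoxic and natural killer genes were lower in 6 of 7 tested genes, 5 of them on both scales, and 1 was higher under the median scaling. Klrk1, the activating receptor NKG2D, had 487, 654 and 533 normalized counts in allo-WT, 55.4, 100.1, 119.8, 133 and 137 in allo-MCd and 397, 351 and 453 in syngeneic mice. Its allo-MCd values lay below those of either other group on the deposited scale, with the same limit as for Cybb. Nkg7, a granule protein, had 360.0, 721 and 497 in allo-WT against 64.5, 55.6, 117, 180.3 and 138 in allo-MCd skin. The differences were -2.40 for Klrk1 and -2.31 for Nkg7. The surface enzyme Cd38, listed with plasma cells but also found on myeloid cells, had 1772, 1271 and 581 against 147, 151, 213, 185 and 168, a difference of -2.67. Bcl6, a repressor of germinal centre B cells that other cells also express, had 243, 277 and 367 against 431, 349, 599, 362 and 619, a difference of 0.65. Leaving out allo-WT mouse 1 or 2 or allo-MCd mouse 3 or 5 kept it between 0.52 and 0.62. Each of these ended the call, at limma adjusted p-values from 0.0633 to 0.131. The Bcl6 call also ended with only allo-WT and allo-MCd mice in the fit (limma adjusted p = 0.0571). With voom on the recovered counts it ended too (limma adjusted p = 0.0566). The B cell marker Ms4a1 was too low to be tested.

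Of 15 tested dendritic cell genes, 7 were lower and 0 higher, and under the median scaling 3 were lower and 2 higher. The share lower, 46.7%, was near the 50% of the panel. Their median of -0.71 lay at that of the panel. Batf had 535, 344 and 372 normalized counts in allo-WT against 36.5, 49.1, 58.9, 48.7 and 76.0 in allo-MCd mice, and the costimulatory receptor Cd40 had 335, 412 and 294 against 53.1, 49.1, 58.9, 70.2 and 82.9. They were lower by -2.94 and -2.46, and Itgax, the integrin CD11c, by -2.23. Batf3, a factor of cross-presenting dendritic cells, was called on the deposited scale (-1.13) but not under the median scaling (-0.30, limma adjusted p = 0.314).

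Interleukins and their receptors were lower in 22 of 30 tested genes, or 73.3%, and 14 were lower on both scales, against 50% and 30.3% of the panel. Of the 30, 0 were higher, and their median was -1.64. Under the median scaling 4 were higher. Il1a, an alarmin of keratinocytes and myeloid cells, had 1739, 979 and 329.6 normalized counts in allo-WT, 97.2, 98.3, 98.1, 82.2 and 89.8 in allo-MCd and 98.8, 169 and 130.1 in syngeneic mice. The alarmin Il33, which activates mast cells and type 2 lymphocytes, had 4713, 5261 and 968 against 497, 426, 462, 339 and 876, and allo-WT mouse 3 stood near the syngeneic mice at 1061, 1256 and 993. Il1a and Il33 were lower by -3.14 and -2.55 (limma adjusted p of 5.46e-05 and 0.000671). The receptor Il10ra had 996, 894 and 1017 against 129, 154, 165, 192 and 254, a difference of -2.47, while its ligand Il10 was low in all mice, at 53.2, 47.8 and 34.5 against 6.83, 13.9, 9.30, 12.8 and 13.8, with no allo-MCd value above background. Il18 differed by -1.38, and by -0.54 under the median scaling (limma adjusted p = 0.0369).

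In the TNF superfamily, 15 of 21 tested genes were lower and 0 higher, where 71.4% lower compares with 50% of the panel. On both scales 7 of the 21 were lower, near the 30.3% of the panel. The median of -0.84 was near that of the panel, and the median scaling called 3 higher. Tnfrsf1b, a TNF receptor of leukocytes, had 1022, 590.0 and 727 normalized counts in allo-WT against 142, 160.4, 194, 169 and 218 in allo-MCd mice. Tnfrsf14 was lower by -1.86 and Birc3, an inhibitor of apoptosis that NF-kappaB induces, by -1.27, or by -0.43 under the median scaling. Of 11 apoptosis and stress genes, 4 were lower and 2 higher, or 36.4% and 18.2% against 50% and 10.9% of the panel. Under the median scaling 3 were lower and 7 higher, where the panel had 30.3% and 35.6%. Without allo-WT mouse 1 the number higher on the deposited scale was 1. Bid differed by -1.32, or by -0.48 under the median scaling, and quantile normalization ended its call (limma adjusted p = 0.133). Jun and Egr2, immediate early genes, were higher by 0.78 and 0.88.

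**Figure D3:**
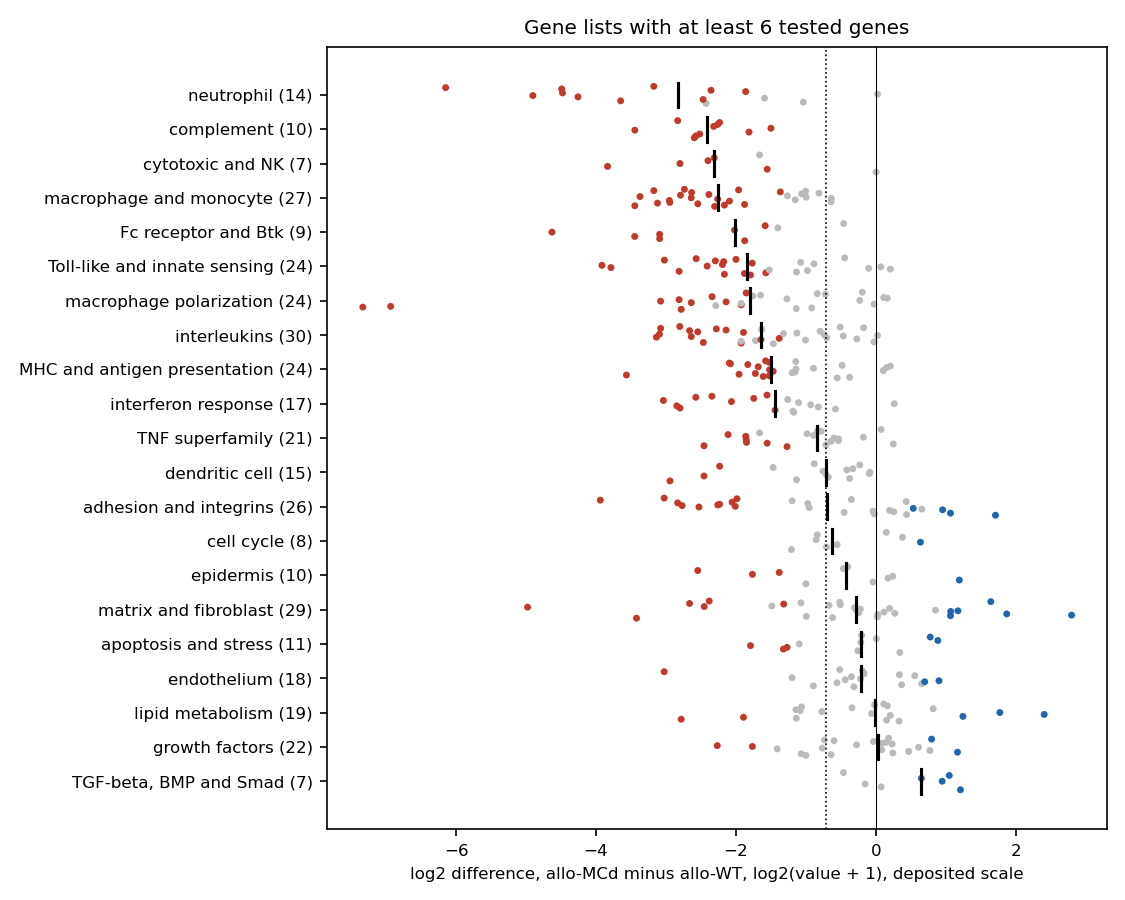
Log2 difference of allo-MCd minus allo-WT on the deposited scale for each tested gene of the 21 lists with at least 6 of them, 1 point per gene, with a bar at the median of the list. The dotted line is the median of all 696 genes at -0.72, red points are genes lower and blue points genes higher on both scales, and grey points are the rest. The medians of the macrophage, polarization and neutrophil lists lie to the left of the dotted line, that of the dendritic cell list lies on it, and that of the TGF-beta, BMP and Smad list lies to the right of 0.

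Of 26 tested adhesion genes 14 were lower and 4 higher, or 53.8% and 15.4%, near the 50% and 10.9% of the panel. Under the median scaling 10 were lower and 11 higher, and without allo-WT mouse 1 or mouse 2 the number higher was 2. The leukocyte integrins were among the lower genes. Itga4, which binds Vcam1, had 1501, 830.0 and 1253 normalized counts in allo-WT against 138, 186, 228, 219 and 249 in allo-MCd mice, a difference of -2.53. Vcam1, the endothelial partner of Itga4, had 406, 885 and 381 against 38.0, 67.7, 59.9, 73.4 and 82.9 and was lower by -3.03 (limma adjusted p = 1.23e-05). In contrast Alcam, an adhesion molecule of epithelium and activated leukocytes, was higher: it had 307, 376 and 1187 in allo-WT skin, against 1636, 1831, 1587, 2104 and 1365 in allo-MCd mice, a difference of 1.71 (limma adjusted p = 0.00169). Its allo-MCd values were also above the syngeneic ones of 625, 682 and 1013. The junction protein F11r was higher by 0.53, the hyaluronan receptor Cd44 by 1.07 and N-cadherin, Cdh2, by 0.95 with overlap between the groups.

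Among the genes higher in allo-MCd skin, Myh4 had the largest difference. It encodes the myosin heavy chain of fast muscle fibers. Normalized counts were 3131, 2504 and 3864 in allo-WT mice, 20252, 21484, 65583, 9063 and 57012 in allo-MCd mice and 24768, 55424 and 55499 in syngeneic mice. The allo-WT mice stood together at the bottom, and allo-MCd mice 3 and 5 were as high as the syngeneic mice. The difference was 3.12 with a standard error of 0.57 (limma adjusted p = 0.000516), although the methods' test on unlogged values did not call it (adjusted p = 0.213 after Benjamini-Hochberg adjustment). Nor did that test, with or without this adjustment, call Elovl6, Col15a1, Smarcd3 or Adamts9 of the leading higher genes or Sele, Bcl6 or Birc5 of the lists (adjusted p from 0.109 to 0.331). It called Rgs6, Hbegf, Mmp19, Fgf7 and Angpt2 without the adjustment across genes but not with it (adjusted p from 0.0506 to 0.0956). Of the 6 skeletal muscle markers Des alone was on the panel, and its values overlapped, at 2023, 5752 and 1969.8 in allo-WT skin against 4045, 4137, 9515, 2823 and 6962 in allo-MCd mice (0.82, limma adjusted p = 0.120). Myod1, the master factor of muscle, was above background in 0 of 3 allo-WT and 3 of 5 allo-MCd mice (0.53, limma adjusted p = 0.202). Des and Myod1 were called higher under the median scaling. Des was also called higher without allo-WT mouse 2 (1.325, limma adjusted p = 0.0161), and Myod1 without allo-MCd mouse 4 (0.77, limma adjusted p = 0.0481). The amount of muscle in each piece of skin was not measured.

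**Figure D4:**
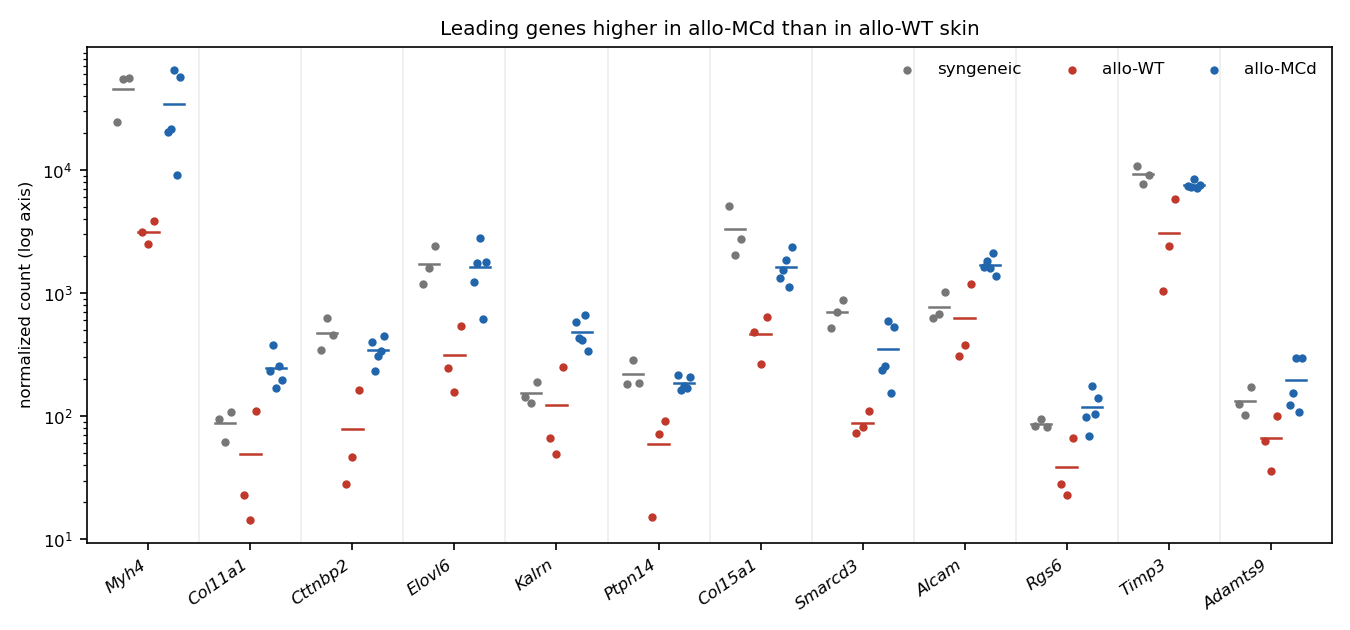
Normalized counts on a log axis of the 12 genes with the largest differences upward among those without overlap, 1 point per mouse and a bar for the group mean, in 3 syngeneic, 3 allo-WT and 5 allo-MCd mice. For Col11a1, Kalrn and Alcam the allo-MCd points lie above the syngeneic points too, while for Smarcd3 they reach up to the syngeneic range.

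Matrix genes moved in both directions. Of 29 tested, 11 were lower and 6 higher, or 37.9% and 20.7% against 50% and 10.9% of the panel. On both scales there were 6 of each, and the median was -0.28. Under the median scaling 6 were lower and 9 higher, where the panel had 30.3% and 35.6%, and the median was 0.56. Without allo-WT mouse 1 the number lower was 6, and the methods' test with adjustment called 6 lower and 2 higher. Higher were the collagens Col11a1, Col15a1 and Col4a2, the metalloproteinase inhibitor Timp3, the matricellular factor Ctgf and Cd44. Col11a1, a fibrillar collagen best known from cartilage, had 22.8, 14.3 and 109.9 normalized counts in allo-WT, 231, 382, 170.5, 256 and 196 in allo-MCd and 94.3, 61.7 and 108 in syngeneic mice. It was higher by 2.80 (limma adjusted p = 0.000727), and its allo-MCd values were above those of all other mice. Only 1 of the 3 allo-WT values was above background, so the size of this difference is not exact. Col15a1, a collagen of basement membranes around vessels and muscle, had 479, 264 and 644 in allo-WT against 1316, 1536, 1854, 1123 and 2379 in allo-MCd mice, a difference of 1.87, and its syngeneic values were 5143, 2048 and 2730.1. Timp3 had 1032, 2397 and 5765 in allo-WT against 7456, 7276, 8515, 7166 and 7502 in allo-MCd mice, and allo-WT mouse 1 was the lowest.

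Lower in the same list were Mmp13, given above, and enzymes of matrix and plasmin turnover. Adam8, a metalloproteinase of leukocytes, had 3635, 2488 and 2139.7 normalized counts in allo-WT against 173, 312, 222, 211 and 382 in allo-MCd mice, Plaur, the urokinase receptor, had 1237, 585 and 648 against 103, 146, 130.2, 98.1 and 140.4, and Mmp19 had 2335, 971 and 634 against 162, 302, 188, 138 and 285. The differences were -3.42, -2.66 and -2.45. Of the fibroblast markers, the abundant collagens Col1a2 and Col3a1 did not pass the test, with differences of 0.27 and -0.25, and Pdgfra was lower by -0.67 (limma adjusted p = 0.0351) but not called under the median scaling (0.397). Their allo-WT values were spread from 6974 in mouse 2 to 108865 in mouse 1 for Col3a1. Adamts9, a protease of versican and aggrecan that stood in no list, was higher by 1.54.

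Genes of the TGF-beta, BMP and Smad pathway were higher in 4 of 7 tested genes and lower in 0, on both scales, with a median of 0.65 against -0.72 for the panel. In this pathway the receptors phosphorylate Smad2 for TGF-beta and Smad1 for BMP ligands, and Smad7 turns the receptors off. Smad7 had 466, 457 and 569.8 normalized counts in allo-WT, 1201, 952, 1098, 1092 and 825 in allo-MCd and 636, 379 and 574 in syngeneic mice, a difference of 1.05 (limma adjusted p = 0.000902). Every allo-MCd value was above all values of the other groups. Smad1 had 388, 748 and 844 against 1265, 1149, 1179, 1334 and 1120.0, and Smad2 had 449, 604 and 741 against 976, 867, 897, 956 and 902, with differences of 0.95 and 0.65. The ligand Bmp6 had 93.8, 41.8 and 169.9 against 217, 182, 244, 179 and 203, a difference of 1.21. Leaving out allo-WT mouse 1 ended the Smad2 call, at a difference of 0.46 (limma adjusted p = 0.0712). Leaving out allo-WT mouse 2 ended that of Bmp6, whose difference fell to 0.68 (limma adjusted p = 0.0578). Tgfbr3, Ski and Skil did not pass the test.

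Of 19 tested lipid genes 7 were lower and 3 higher, or 36.8% and 15.8% against 50% and 10.9% of the panel. Under the median scaling 2 were lower and 11 higher, where the panel had 30.3% and 35.6%. Without allo-WT mouse 1 the number lower was 4, and the methods' test called 4 lower and 1 higher. Elovl6, which lengthens saturated fatty acids, had 246, 156 and 543 normalized counts in allo-WT, 1230.1, 1745, 2819, 621 and 1784 in allo-MCd and 1184, 1589 and 2395 in syngeneic mice, and was higher by 2.40 (limma adjusted p = 0.000963). Apoe, the lipoprotein that macrophages and other cells secrete, had 8193, 12798 and 20895 against 29746, 25810.5, 30758, 28616 and 40632, a difference of 1.24 (limma adjusted p = 0.00250). The fatty acid synthase gene Fasn was higher by 1.77 but overlapped, because allo-WT mouse 3 had 5749.8 and allo-MCd mouse 4 had 3652. In the other direction Alox5ap, which presents arachidonic acid for leukotriene synthesis, had 1884, 1022 and 1768 against 297, 399.6, 419, 368 and 589, a difference of -1.89. The adipocyte marker Fabp4 did not pass the test (-0.06) and ran from 9842 to 34771 within the allo-MCd mice. Lipa, the lysosomal lipase, lost its call under the median scaling (-1.14 and -0.30), as did the hypoxia factor Hif1a (-1.33 and -0.49).

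Among 10 tested epidermal genes, the cytokine genes Il33, Il18 and Hbegf were lower and Cldn1, a protein of tight junctions, was higher. Hbegf, a growth factor of the EGF family, had 3838, 1998 and 1231 normalized counts in allo-WT against 520.1, 782, 542, 475 and 879 in allo-MCd mice (-1.77). Cldn1 had 1818, 3310.5 and 4928 in allo-WT skin, against 6996, 6918, 7267, 7679 and 6535 in allo-MCd mice, a difference of 1.19, and leaving out allo-WT mouse 1 ended its call (limma adjusted p = 0.0630). The keratinocyte marker Cdh1 did not pass the test, at 6371, 4905 and 3955 against 4999, 4700.1, 4652, 5187 and 4659.8 (-0.04), but was called higher under the median scaling (0.80, limma adjusted p = 0.0167), where the list had 3 lower and 4 higher genes. Without allo-WT mouse 3 the list had 6 lower genes on the deposited scale.

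Of 22 growth factor genes, 6 were lower and 2 higher, or 27.3% and 9.09%, against 50% and 10.9% of the panel. The balance turned to 2 lower and 12 higher under the median scaling, as that of the panel turned from 348 lower and 76 higher to 211 and 248. Without allo-MCd mouse 4 the number lower was 3 and without allo-WT mouse 1 the number higher was 1, and the methods' test with adjustment called 1 in each direction. Hgf, a factor that mesenchymal cells make for epithelium, had 869.5, 574 and 372 normalized counts in allo-WT against 84.3, 92.7, 143, 104 and 193 in allo-MCd mice, a difference of -2.27, and Fgf7, a fibroblast factor for keratinocytes, differed by -1.41 but by -0.57 under the median scaling (limma adjusted p = 0.0705). Pdgfa, which drives fibroblast growth, was higher, at 444, 552 and 437 against 838, 781, 769.6, 817 and 926 (0.79, limma adjusted p = 0.00285), as was Egf (1.17). In the endothelial list 13 of 18 genes did not pass the test. The 3 lower and 2 higher were 16.7% and 11.1%, against 50% and 10.9% of the panel. The median scaling gave 1 lower and 7 higher, where the panel had 30.3% and 35.6%. A single gene was higher when any 1 of allo-MCd mice 1, 3 and 5, allo-WT mice 1 and 2 and syngeneic mice 2 and 3 was left out. Jag1, a Notch ligand, was higher, at 1245, 954 and 1329 in allo-WT, 1911, 2179, 1753, 1972 and 1663 in allo-MCd and 928, 999 and 1288 in syngeneic mice (0.70, limma adjusted p = 0.00473). Angpt2 and Sele were called lower on the deposited scale and not under the median scaling, and their groups overlapped. Angpt2 also lost its call without allo-WT mouse 3, and Sele without allo-WT mouse 1 or allo-MCd mouse 1 or 4, at limma adjusted p-values from 0.0516 to 0.151. Without allo-WT mouse 1 the Sele difference was -0.68. A replicate block, which adds the mouse number to the fit, also ended the Sele call (-1.19, limma adjusted p = 0.0529). The markers Cdh5 and Tek were called higher under the median scaling alone.

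Genes in none of the lists made up 274 of the 608. Of these 82 were lower and 45 higher, or 29.9% and 16.4% against 50% and 10.9% of the panel. The median scaling gave 33 lower and 151 higher, where the panel had 30.3% and 35.6%. The median difference of the 274 genes was -0.16, or 0.68 under the median scaling, and the 334 listed genes had -1.05 and -0.21. Kalrn, an exchange factor for small GTPases that is best known in neurons, had 65.9, 49.0 and 253 normalized counts in allo-WT, 580.1, 434, 418, 658 and 338 in allo-MCd and 144, 129 and 189 in syngeneic mice. It was higher by 2.32 (limma adjusted p = 0.000761), and all allo-MCd values exceeded those of the other mice. Cttnbp2, a cortactin-binding protein, had 27.9, 46.6 and 162 in allo-WT, 403, 235, 309.9, 337 and 448 in allo-MCd and 343, 623 and 459.8 in syngeneic mice, a difference of 2.48. Here the allo-WT group was low and the allo-MCd values lay within or below the syngeneic range. Ptpn14, a phosphatase that holds Yap1 in the cytoplasm, was higher by 1.97, with 15.2, 71.7 and 90.7 against 217, 163, 176, 169 and 208. Rgs6, a regulator of G-protein signaling, was higher by 1.66. For Cttnbp2, Ptpn14 and Rgs6 only 2 of the 3 allo-WT values were above background, so the sizes of these differences are not exact. Smarcd3, a chromatin remodeling subunit of heart and muscle, had 73.5, 81.2 and 109.9 in allo-WT against 235, 256, 593, 153 and 529.5 in allo-MCd mice (1.83), and within the allo-MCd group mice 3 and 5, which had the most Myh4, were also highest for it.

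Of 8 tested cell cycle genes, Birc5 was lower, Cdkn1a was higher and 6 did not pass the test, and under the median scaling 0 were lower and 3 higher. In 5 of the 8 the allo-MCd mice differed among themselves, which was seen in the values and not tested. Top2a, the topoisomerase of dividing cells, had 1656, 1959.8, 557, 1965 and 588 normalized counts in allo-MCd mice 1 to 5, 1772, 2764 and 1819 in allo-WT and 367, 1128 and 762 in syngeneic mice. Mice 1, 2 and 4 were within or near the allo-WT range, and mice 3 and 5 were within the syngeneic range. Birc5, or survivin, took the same order, at 194, 214, 66.1, 241 and 72.5, and differed by -1.21 (limma adjusted p = 0.0393). Its call ended without syngeneic mouse 3, allo-WT mouse 1 or 2 or allo-MCd mouse 3 or 5. There the difference lay between -1.21 and -0.90 at limma adjusted p-values from 0.0513 to 0.171. The call also ended under the median scaling, where the difference was -0.37 (0.551). With only allo-WT and allo-MCd mice in the fit, it ended as well (-1.21, limma adjusted p = 0.064). Ccnb2, Cdc20 and Mcm5 split the allo-MCd mice likewise, with 582, 680.4, 179.8, 587 and 258 for Mcm5. Cdkn1a, the inhibitor p21, did not split them, at 3636, 4009, 3868, 3466 and 3415 against 2112, 2048 and 3052 in allo-WT mice, and was higher by 0.64 (limma adjusted p = 0.00620). The labels give no litter, cage or transplant for the mice, so a batch could not be set beside this split.

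**Figure D5:**
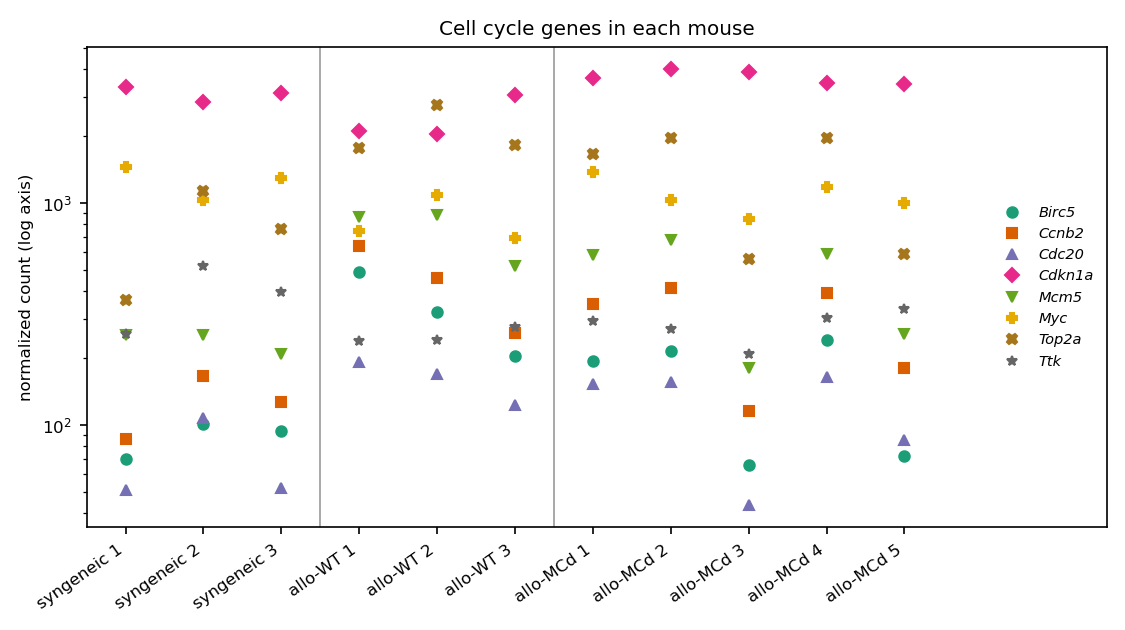
Normalized counts on a log axis of the 8 tested cell cycle genes in each of the 11 mice. Birc5, Ccnb2, Cdc20, Mcm5 and Top2a are higher in allo-MCd mice 1, 2 and 4 than in mice 3 and 5, while Cdkn1a and Ttk show no such gap.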

How the data were processed

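Skin RNA of 11 mice (3 syngeneic, 3 allo-WT, 5 allo-MCd) was run on NanoString's Myeloid Innate Immunity panel at 100 ng per lane. Each deposited value is a linear signal, a molecule count that the authors normalized in nSolver, whose version is not given in the sources used here. The deposited control probes were raw counts. The geometric mean of 20 housekeeping genes was 1104 in 10 mice and 1089 in allo-MCd mouse 5. Whole counts were recovered by dividing out 1 factor per mouse (99.87% to 100% of values within 0.011 of a whole number). They give the depth, 831632 to 1460260 counts per mouse, which limits the precision of low genes. Background was set 2 SD above the mean of the 8 negative controls. RefSeq (GRCm38.p6) held 744 of the 754 symbols, and a further 9 as synonyms.

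Groups were compared with limma 3.58.1 (R 4.3.3) on log2(value + 1), with an intensity trend, no covariate and all 3 groups in the fit, over the 696 genes that reached 20 in 3 or more mice, with Benjamini-Hochberg adjustment over all of them. The fit was tested on simulated data. Exact permutation tests of single genes over 56 arrangements can give no p below 0.0179 and are kept beside the fit. The methods' test is the 3-group comparison with Tukey's correction that the methods name, on unlogged values. Median scaling divides each mouse by its median gene. Alternatives were other pseudocounts, filters and normalizations, limma without or with a robust trend, the groups compared alone, the methods' test, voom on the recovered counts, a replicate block, and each mouse left out.

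The members and the 25 gene lists were chosen with earlier results of these data known, so counts over them are descriptions. Genes were named by rule: the 12 largest differences in each direction among genes called on both scales without overlap, up to 4 called genes per list by the size of limma's statistic, every tested gene of lists with fewer than 6, and the mast cell genes as a check. Other genes were named after their values were seen, and a few that the rule takes are not reported here. All pairs of mice within a group differed by more than sampling noise. The labels name Trizol and the methods Ribozol for extraction. Python 3.11.15 with pandas 2.3.3 handled the tables, and plots were made in matplotlib 3.10.9.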

Additional observations from a re-analysis of the deposited data

Results flagged for a closer look

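Of 99 named genes checked in the allo-MCd mice for a single mouse far from the other 4, 3 stood out, where chance gives about 1 in 20. Timp3 was highest in allo-MCd mouse 3, at 8515 normalized counts with the nearest mouse at 7502. Cybb was lowest in allo-MCd mouse 1, at 331.8 with the nearest at 544.4, and Fcgr3 was highest in allo-MCd mouse 5, at 321.2 with the nearest at 209.5. In each gene all allo-MCd values remained on the same side of the allo-WT values.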

How the results depend on the processing

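The scale set the count of calls most. Over all 696 genes, 348 were lower and 76 higher on the deposited scale, 211 and 248 under median scaling, and 205 and 255 under quantile normalization. For the 608 genes outside the plotted families these were 283 and 71, 159 and 235, and 155 and 242. The methods' test with Benjamini-Hochberg adjustment left 44 of all genes and 42 of the 608 higher. With a mouse left out, all genes gave 299 to 360 lower and 48 to 89 higher, and the 608 gave 240 to 294 lower and 45 to 83 higher. On both scales, an alternative chosen after seeing the data, they gave 145 to 161 lower and 45 to 83 higher. The lowest counts of higher genes, 48 and 45, were without allo-WT mouse 1. Mouse numbers did not pair the samples (correlations of -0.11, -0.06 and 0.04 for mice 1 to 3), and a replicate block gave 324 lower and 60 higher genes. Of the 99 named genes 68 kept direction and side of the threshold in every alternative run, and Angpt2 changed sign under quantile normalization (0.11, limma adjusted p = 0.690). A quasi-likelihood count test was not run. The cause of these changes was not tested. Depth and the 3 allo-WT mice limit the low genes.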

Other observations

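The genes Rnase2a, Siglecf and Il5ra were in no list and were named after their values were seen. Rnase2a, an eosinophil ribonuclease, had 1374, 2258 and 33826 normalized counts in allo-WT, 200.5, 487, 445, 179 and 558 in allo-MCd and 23.9, 53.0 and 25.4 in syngeneic mice. Allo-WT mouse 3, the lowest for S100a9, was the highest for Rnase2a, and every allo-MCd mouse was above every syngeneic mouse. Siglecf, a surface lectin of eosinophils, had 535, 113 and 939 against 44.8, 51.0, 48.5, 49.5 and 90.9, and Il5ra, the receptor for the eosinophil growth factor, had 114, 23.9 and 148 against 11.4, 17.6, 16.5, 10.4 and 18.4. Rnase2a, Siglecf and Il5ra were lower by -3.80, -2.79 and -2.28 (limma adjusted p of 0.00197, 0.000761 and 0.00176). Most allo-MCd values of Il5ra were not above background, so the size of its difference is not exact. The granule genes Epx, Prg2 and Prg3 were too low to be tested.

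A few genes outside the lists stood above both other groups in allo-MCd skin. Fbp1, an enzyme of gluconeogenesis, had 7.48, 16.2 and 9.92 normalized counts in syngeneic, 65.9, 58.5 and 203 in allo-WT and 399, 602, 313, 467 and 131 in allo-MCd mice. Dusp2, a phosphatase of activated lymphocytes and macrophages, had 121, 64.9 and 100.3, then 213, 295 and 420.3 in allo-WT and 655, 625, 788, 822 and 402 in allo-MCd mice. Against allo-WT they were higher by 1.87 and 1.10 with overlap between the groups (limma adjusted p of 0.00805 and 0.00819), and against syngeneic mice by 4.87 and 2.78. These comparisons share the allo-MCd mice. No syngeneic value of Fbp1 was above background, so the size of its difference from the syngeneic mice is not exact. Tenascin C, Tnc, a matrix protein of wounds, lay between the other groups, with 513, 410.0 and 979 in syngeneic, 2399.5, 4462, 2332, 2848 and 2103 in allo-MCd and 38417, 10686 and 6977 in allo-WT mice.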
